A study of Homo sapiens with 11 samples.

Results

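Regions found by CUT&RUN for endogenous myc were divided by whether a rabbit IgG library had a region at the same place. CUT&RUN uses an antibody to tether a nuclease to chromatin, so that DNA beside the bound protein is cut out and sequenced, and an IgG library uses an antibody with no intended target. The authors' list of regions for endogenous myc (endog_myc, merged from 3 libraries of HEK293T cells, with no tag in the label) held 1143 regions on chromosomes 1 to 22 and X. Their list for rabbit IgG (rbt_IgG, 1 library of the same line) held 228 regions on those chromosomes, and the 5 lists of the series together held 4616. A region of endog_myc was placed in the overlapping group when it shared 1 bp or more with a rabbit IgG region, which gave 207 overlapping regions and 936 that did not overlap. The other lists came from cells labelled myc_FLAG (3 libraries) and edit_myc_FLAG (3 libraries) and from mouse IgG (ms_IgG, 1 library). HEK293T is an established line of human embryonic kidney cells, and about 500K cells went into each library with no treatment or time point given. The labels name the antibodies of the whole series (mouse anti-FLAG, rabbit anti-myc, rabbit IgG and mouse IgG), not that of each library, so endog_myc is taken as rabbit anti-myc from its name. A list of regions holds no read depth, and the depth behind each value is unknown. With 1 rabbit IgG library and 1 merged endog_myc list, no spread between replicates could be had, and each interval and test below covers the counting of regions only.

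MYC is a transcription factor that pairs with MAX and binds the E-box CACGTG, most often in promoters of genes for growth, ribosome production and metabolism. An IgG list shows where fragments gather without a specific target. The share of a factor's regions that recur in it is a usual gauge of background, and it depends on the length of both lists. CCAAT, on either strand, is the promoter element bound by the trimeric factor NF-Y.

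The sequences shown are the 250 bases before the annotated start of genes, chosen where this window shared bases with an endog_myc region, from RefSeq (GRCh38.p14), 5′ to 3′ on the gene's strand. Capitals mark CCAAT or, where it lies on the other strand, ATTGG. The element was in windows under regions of both groups, and neighbouring matches can overlap. A window can reach past its region, so a marked match can lie outside the region, as at ITSN1. None of the 9 windows holds CACGTG. Windows that run into another annotated gene were passed over. The first 4 lay under endog_myc regions that overlapped rabbit IgG: VPS35 (chr16:46689179-46689428, minus strand), SP2 (chr17:47895986-47896235, plus strand), KHSRP (chr19:6424812-6425061, minus strand) and ITSN1 (chr21:33642251-33642500, plus strand).
VPS35: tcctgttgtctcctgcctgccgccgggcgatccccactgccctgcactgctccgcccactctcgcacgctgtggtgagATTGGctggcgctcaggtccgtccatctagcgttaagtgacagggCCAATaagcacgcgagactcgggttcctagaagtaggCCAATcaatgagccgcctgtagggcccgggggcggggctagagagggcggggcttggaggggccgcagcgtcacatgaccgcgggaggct
SP2: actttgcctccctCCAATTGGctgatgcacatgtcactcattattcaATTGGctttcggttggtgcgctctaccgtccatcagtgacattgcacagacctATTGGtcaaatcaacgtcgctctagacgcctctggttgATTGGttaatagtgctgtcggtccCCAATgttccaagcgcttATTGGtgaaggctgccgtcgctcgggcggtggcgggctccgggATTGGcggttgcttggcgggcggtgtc
KHSRP: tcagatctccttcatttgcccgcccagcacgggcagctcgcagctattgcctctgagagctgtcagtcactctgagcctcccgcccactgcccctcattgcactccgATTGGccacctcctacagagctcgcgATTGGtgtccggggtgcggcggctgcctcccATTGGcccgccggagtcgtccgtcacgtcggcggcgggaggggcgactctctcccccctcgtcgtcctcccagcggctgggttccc
ITSN1: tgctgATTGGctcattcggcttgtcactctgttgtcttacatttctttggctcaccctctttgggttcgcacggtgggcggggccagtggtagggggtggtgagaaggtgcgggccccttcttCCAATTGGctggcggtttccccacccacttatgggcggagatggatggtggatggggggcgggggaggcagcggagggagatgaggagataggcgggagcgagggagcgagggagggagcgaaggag
The other 5 lay under endog_myc regions that overlapped no rabbit IgG region: MYPOP (chr19:45902614-45902863, minus strand), H3-3B (chr17:75779780-75780029, minus strand), P4HB (chr17:81860536-81860785, minus strand), SNRPA (chr19:40750953-40751202, plus strand) and LENG1 (chr19:54159722-54159971, minus strand).
MYPOP: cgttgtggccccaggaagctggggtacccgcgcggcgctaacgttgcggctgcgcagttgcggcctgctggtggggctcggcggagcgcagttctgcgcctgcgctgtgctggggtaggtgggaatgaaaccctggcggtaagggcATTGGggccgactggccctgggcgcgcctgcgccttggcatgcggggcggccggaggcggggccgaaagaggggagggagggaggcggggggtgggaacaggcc
H3-3B: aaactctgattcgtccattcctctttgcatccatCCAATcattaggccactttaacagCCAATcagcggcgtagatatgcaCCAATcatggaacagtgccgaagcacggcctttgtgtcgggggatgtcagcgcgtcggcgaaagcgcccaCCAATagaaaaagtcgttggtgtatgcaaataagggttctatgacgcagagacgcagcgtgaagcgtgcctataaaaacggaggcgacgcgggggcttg
P4HB: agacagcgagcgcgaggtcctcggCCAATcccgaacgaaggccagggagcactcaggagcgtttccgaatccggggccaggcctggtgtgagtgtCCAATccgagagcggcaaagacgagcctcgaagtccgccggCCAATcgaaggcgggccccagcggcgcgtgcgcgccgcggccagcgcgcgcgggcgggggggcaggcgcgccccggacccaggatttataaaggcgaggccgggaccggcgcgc
SNRPA: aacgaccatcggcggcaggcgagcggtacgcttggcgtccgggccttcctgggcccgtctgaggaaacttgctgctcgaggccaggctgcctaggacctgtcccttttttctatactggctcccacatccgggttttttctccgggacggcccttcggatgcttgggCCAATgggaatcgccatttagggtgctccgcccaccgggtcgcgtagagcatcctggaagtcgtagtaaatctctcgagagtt
LENG1: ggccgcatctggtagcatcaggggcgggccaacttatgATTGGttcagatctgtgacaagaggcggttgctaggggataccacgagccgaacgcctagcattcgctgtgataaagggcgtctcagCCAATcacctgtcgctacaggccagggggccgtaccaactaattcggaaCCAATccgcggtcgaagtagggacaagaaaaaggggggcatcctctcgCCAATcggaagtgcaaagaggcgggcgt
The SP2 window holds 8 matches, those of H3-3B and LENG1 hold 4 each, those of VPS35, KHSRP, ITSN1 and P4HB hold 3 each, and those of MYPOP and SNRPA hold 1 each.

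Nearly every rabbit IgG region recurred in the endog_myc list, whereas most endog_myc regions did not recur in rabbit IgG. Of 228 rabbit IgG regions, 217 overlapped an endog_myc region (95.2%, 95% Wilson interval 91.6 to 97.3). Seen from the other list, the 207 overlapping regions were 18.1% of the 1143 endog_myc regions (16 to 20.4). List size limits this second share. The rabbit IgG list, from 1 library, held only 228 regions, and 10 of the 207 overlapped 2 of them. Regions without overlap are therefore not shown to be free of background. All 155 rabbit IgG regions with a −log10 q of 5 or more recurred, against 62 of the 73 weaker ones (84.9%, 75 to 91.4). The q is the false discovery rate that the authors' peak caller gave to a region, so a higher −log10 q marks a stronger call. Overlapping pairs coincided closely: their summits lay a median of 16 bp apart (quartiles 5 and 91 bp), 138 of 207 pairs had summits within 50 bp, and the endog_myc region was the wider of the pair in 198 of 207. The median rabbit IgG region of a pair was covered to 100%. At the edge of the rule, the smallest overlaps were 25 bp in a gene-poor stretch of chromosome 13, 57 bp on chromosome 1 and 87 bp inside FER, with authors' folds of 4.95, 5.27 and 7.38. Just outside it, 6 endog_myc regions lay within 500 bp of a rabbit IgG region, the nearest at 257 bp beside the 5S ribosomal RNA pseudogene RNA5SP19, with a fold of 6.47.

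The 11 rabbit IgG regions that did not recur were all weak and narrow. Their −log10 q ran from 1.32 to 4.93, their fold from 4.36 to 6.54 and their width from 202 to 268 bp. Among them, 3 lay at gene ends: chr1:11262600-11262849 at MTOR, the growth-controlling kinase, chr1:43450723-43450973 at HYI, and chr16:84504417-84504642 at MEAK7. Another 5 lay inside genes: TDRD10 (chr1:154531824-154532040), STARD13 (chr13:33542727-33542951), LOC105373480 (chr2:740446-740666), RAB3GAP1 (chr2:135117515-135117716) and OPRL1 (chr20:64088632-64088848). The other 3 were gene-poor, at chr1:124467008-124467216, chr15:17080605-17080872 and chr8:135877544-135877749. None of the 11 overlapped a mouse IgG region, 4 overlapped an edit_myc_FLAG region and 4 a myc_FLAG region.

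Overlapping regions were called far more strongly and were wider, as described by the authors' own values within the endog_myc list. The median −log10 q was 49.7 (95% binomial interval of the median 32.7 to 62.1) among the 207 overlapping regions and 5.79 (5.53 to 6.15) among the other 936. The median fold, the authors' enrichment over background at the summit, was 7.20 (6.38 to 7.87) against 5.37 (5.27 to 5.49). Width had a median of 583 bp (511 to 681) against 282 bp (273 to 293). A wider region has more room to overlap, so width is tied to the rule itself. Rabbit IgG regions had, in their own list, a median fold of 5.77, a median −log10 q of 11.5 and a median width of 344 bp.

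**Figure D1:**
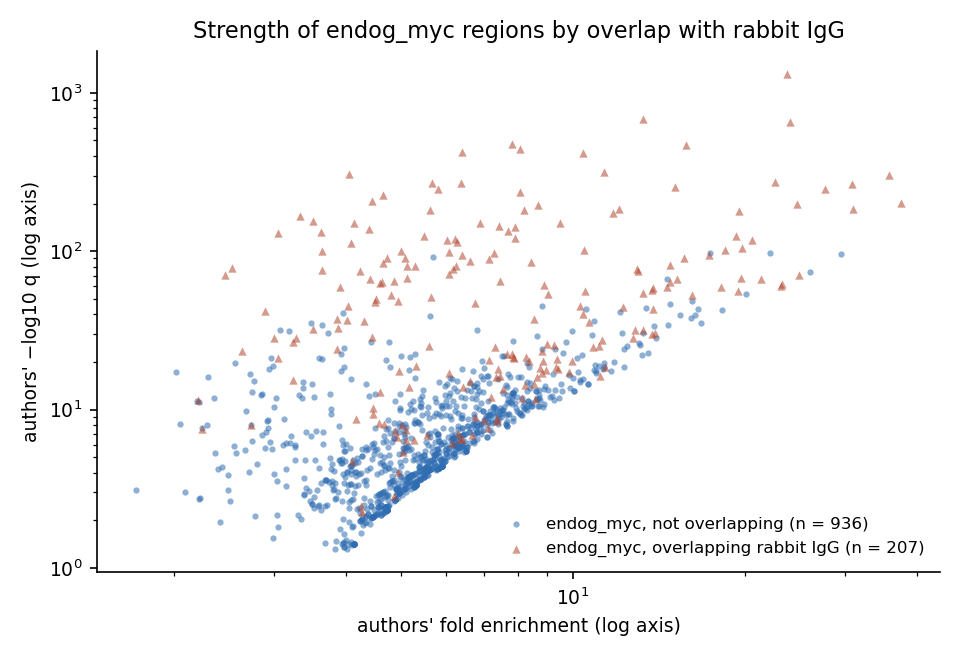
Each point is 1 endog_myc region, with the authors' fold on the horizontal log axis and the authors' −log10 q on the vertical log axis; triangles are the 207 regions overlapping rabbit IgG and circles the 936 that do not. Most triangles lie higher than most circles, with medians of 49.7 and 5.79 on the vertical axis, although some circles of high fold reach up among the triangles.

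Fold and −log10 q ranked the overlapping regions differently. When the 1143 regions were sorted by −log10 q into 10 groups of 114 or 115, 107 of 115 regions in the strongest group overlapped rabbit IgG (93%, 86.9 to 96.4), 47 of 114 in the next (41.2%), and 1 or 2 in each of the 4 weakest. The 50 regions with the highest −log10 q all overlapped rabbit IgG, and none of those lay at a gene end. Sorted by fold, the strongest group held 59 of 115 (51.3%, 42.3 to 60.2), the sixth 6 of 114 (5.26%) and the weakest 19 of 115 (16.5%), so the share did not climb steadily. Among the 100 regions of highest fold, 56 overlapped rabbit IgG.

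**Figure D2:**
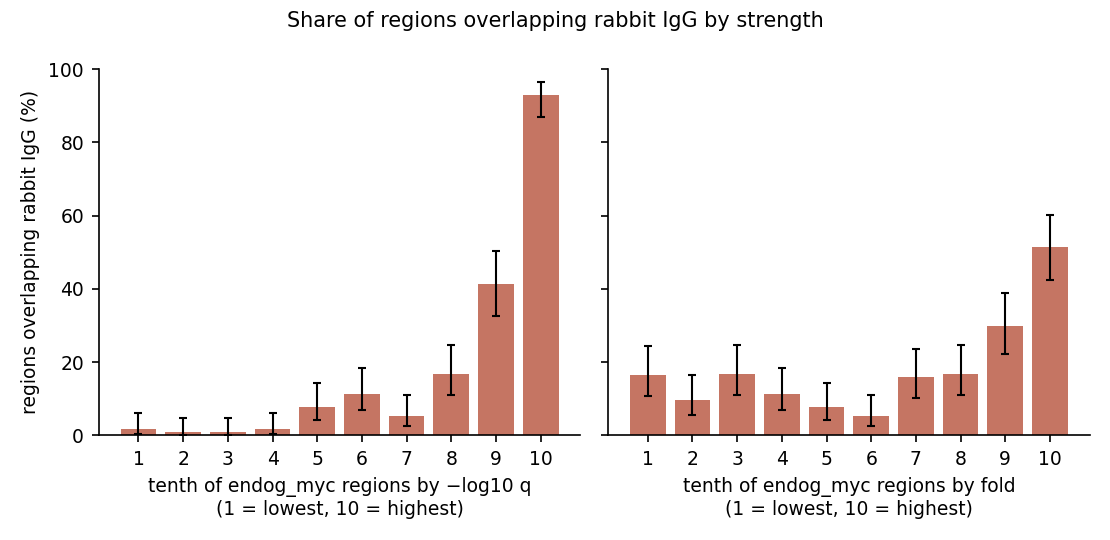
Bars give the percentage of endog_myc regions overlapping rabbit IgG in 10 groups of 114 or 115 regions ordered by −log10 q (left) or fold (right); error bars are 95% Wilson intervals. The share reaches 93% in the group with the highest −log10 q and 51.3% in the group with the highest fold.

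Of the 4 kinds of location, gene ends showed the largest difference between the groups. Here a region is at a gene end when its summit is at most 1000 bp from the start or the end of a gene that codes for protein. Such regions made up 278 of the 936 non-overlapping regions (29.7%, 26.9 to 32.7) but 9 of the 207 overlapping ones (4.35%, 2.3 to 8.06). The difference was -25.4 percentage points (95% interval -29 to -20.7), and Fisher's exact test, two-sided and adjusted over the 4 location classes by Benjamini-Hochberg, gave p = 3.57e-17. Of the 287 endog_myc regions at gene ends, 3.14% overlapped rabbit IgG, against 23.1% of the 856 elsewhere, beside 18.1% of all. Call strength also differed by location. Of the 10 groups by −log10 q, the strongest held 0 gene-end regions, and the 4 weakest held 40 to 42 each. With a −log10 q of at least 5 in both lists the difference was -25 points (Fisher's exact adjusted p = 4.25e-16). Gene ends and other locations were not compared within groups of like strength. The rabbit IgG list itself had 13 of 228 regions at gene ends (5.7%).

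Outside genes but within 100 kb of one, the order was the opposite. This class held 85 overlapping regions (41.1%) and 168 non-overlapping ones (17.9%), a difference of 23.1 points (16.1 to 30.3, Fisher's exact adjusted p = 1.85e-11). The test and interval count each region as independent, so they understate the error here. Of the 85 regions, 19 lay between chr1:143200210-143267532 and 11 between chr4:49118335-49154973. Gene-poor stretches, over 100 kb from any annotated gene, held 72 overlapping (34.8%) and 336 non-overlapping regions (35.9%), and the difference of -1.11 points (-8.02 to 6.24) did not pass the test (Fisher's exact adjusted p = 0.81), its sign turning under 3 other settings that did not pass either. Inside genes lay 41 (19.8%) and 154 (16.5%), a difference of 3.35 points (-2.11 to 9.72) that did not pass either (Fisher's exact adjusted p = 0.349). Among the 500 endog_myc regions of highest fold the inside-gene difference was 9.89 points (Fisher's exact adjusted p = 0.0149), and with a −log10 q of at least 5 in both lists it was 7.04 points (Fisher's exact adjusted p = 0.0496).

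**Figure D3:**
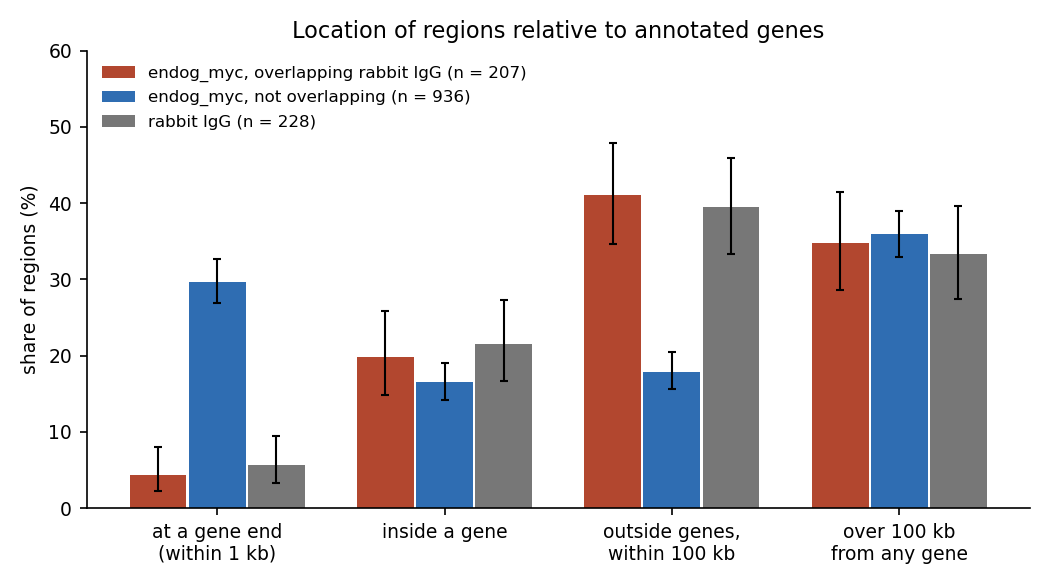
Bars give the percentage of regions in each of 4 locations for endog_myc regions overlapping rabbit IgG (n = 207), endog_myc regions not overlapping (n = 936) and rabbit IgG regions (n = 228); error bars are 95% Wilson intervals. Gene ends hold 29.7% of the non-overlapping regions against 4.35% of the overlapping ones.

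Width moved with location and with overlap, so the overlap at gene ends was also read within width classes. Below 300 bp, 1 of 152 gene-end regions overlapped rabbit IgG (0.658%) against 24 of 389 elsewhere (6.17%). From 300 to 499 bp it was 3 of 105 (2.86%) against 58 of 280 (20.7%), and from 500 bp upwards 5 of 30 (16.7%, 7.34 to 33.6) against 116 of 187 (62%, 54.9 to 68.7). The share at gene ends was the lower value in each of these 3 classes, with no test made within them.

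The non-overlapping gene-end regions sat at starts of genes. RefSeq's promoter table gave the strand for 253 of the 278, and 252 of those were at an annotated start and 1 at the other end. Their summits lay a median of 95 bp before the start, quartiles from 201 bp before to 76.2 bp after, and 170 of 252 (67.5%) were upstream. Starts of 2 or more genes shared 42 of the regions. The 12 genes of highest fold began with MYPOP, which encodes a Myb-related transcription factor, at 12.3, and OSBP, an oxysterol-binding protein, at 11.1. H3-3B, which encodes the replacement histone H3.3, and P4HB, a protein disulfide isomerase, both had a fold of 10.2. SNRPA, an RNA-binding protein of the spliceosome, followed at 9.62, then LOC124903130 at 9.26 and LENG1 at 9.23. RPRD2 had 8.76, SKA2 and PRR11 share a start region with 8.72, SPRYD3 and the JAK-family kinase gene TYK2 each had 8.72, and MTRFR, a mitochondrial release factor, had 8.62. None of these regions overlapped a mouse IgG region. They were moderate in the whole list: MYPOP ranked 68 by fold and 181 by −log10 q.

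At the genes where rabbit IgG itself had a region, endog_myc usually had one too. A rabbit IgG summit lay within 1000 bp of an end of 17 protein-coding genes, 0.0851% of 19974, from 13 regions, while endog_myc reached 359 genes (1.8%). Of the 17 genes, 13 also had an endog_myc summit there, 15 an edit_myc_FLAG summit, 12 a myc_FLAG summit and 0 a mouse IgG summit. Counted by region, 10 of these 13 rabbit IgG regions overlapped an endog_myc region, beside 217 of all 228 (95.2%). The rabbit IgG regions at these genes were weak: none reached a −log10 q of 5, so the count falls to 0 at that threshold. Several genes share a region: ORC6 and VPS35, FBXO24 and LRCH4, ACTR1A and SUFU, and CRYZL1 and ITSN1.

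At these genes the 2 lists had the following folds, each on its own scale. What library each list's fold is relative to is not stated, and the endog_myc fold may already be relative to an IgG library, so folds of different lists are set side by side here and elsewhere without a comparison. At the start shared by VPS35, a subunit of the retromer, and ORC6, a subunit of the origin recognition complex, endog_myc had a fold of 13.7 and rabbit IgG 5.86. At SP2, a zinc-finger transcription factor, the values were 11.1 and 5.59. FBXO24 and LRCH4 had 9.42 against 5.16, KHSRP, an RNA-binding regulator of splicing and decay, 9.34 against 5.10, and AGPAT5, a phospholipid acyltransferase, 8.57 against 5.77. CIC, the repressor capicua, had 7.34 against 5.22, and EIF5A, a translation factor, 6.35 against 6.11. At ACTR1A, a dynactin subunit, and SUFU, an inhibitor of Hedgehog signalling, endog_myc had 4.28 against 4.52, and at CRYZL1 and the endocytic scaffold gene ITSN1 4.25 against 5.47. FER, HYI, MEAK7 and MTOR had no endog_myc summit within 1000 bp, although the FER region overlapped an endog_myc region whose summit lay farther inside the gene, with a fold of 7.38.

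**Figure D4:**
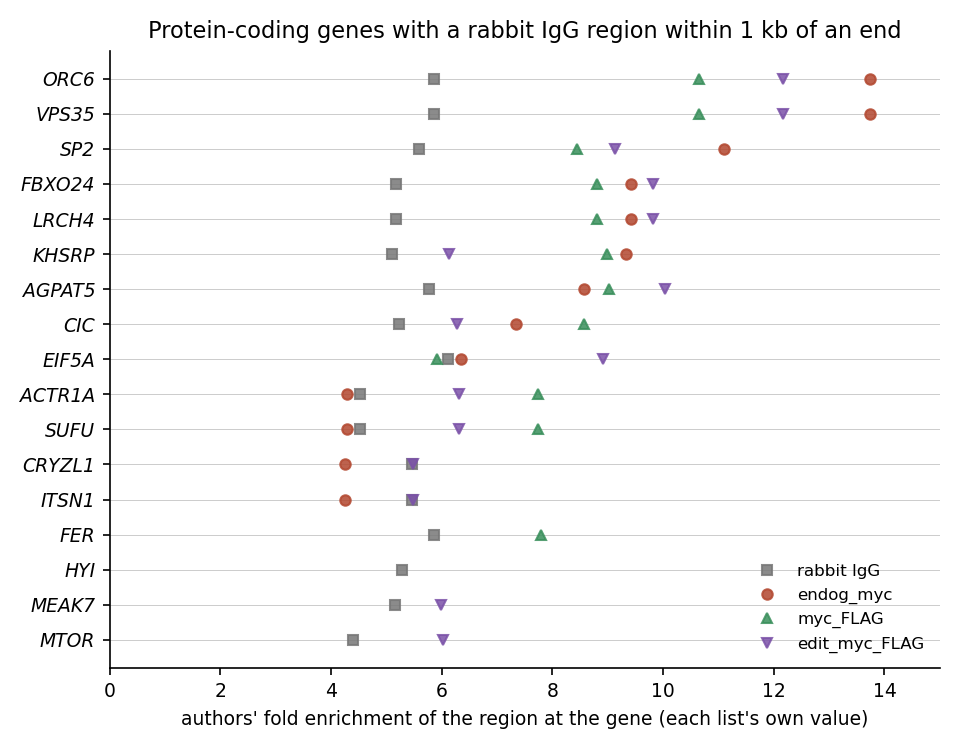
Each row is 1 of the 17 protein-coding genes with a rabbit IgG summit within 1000 bp of an end, and the horizontal axis is the authors' fold of the region at that gene in each list; a missing symbol means no summit there. On each list's own scale, the squares (rabbit IgG) lie between 4.39 and 6.11 and the circles (endog_myc) between 4.25 and 13.7.

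CCAAT was in most windows before gene starts under endog_myc regions of both groups, which is described here without a test. RefSeq gave 22012 windows of 250 bases for 15712 of 19974 protein-coding genes, and 315 of the 359 genes with an endog_myc summit had one. CCAAT, on either strand, was in 265 of 309 windows under endog_myc regions outside rabbit IgG (85.8%, 81.4 to 89.2), in 13 of 13 under overlapping regions and in 11 of 11 under rabbit IgG regions, against 7200 of all 22012 (32.7%). Counted per region, at least 1 window with CCAAT lay under 217 of 246 non-overlapping regions (88.2%) and 9 of 9 overlapping ones. Windows with 2 or more matches were 66% of the 309 and 10.5% of all. Restricting to windows with 10 or more CG dinucleotides gave 85.6% of 298 and 31.8% of 14401.

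CCAAT was also in most windows at every level of fold. When the 309 windows were split by the fold of their region into 3 groups, CCAAT was in 79 of 104 (76%, 66.9 to 83.2), 87 of 102 (85.3%, 77.1 to 90.9) and 99 of 103 (96.1%, 90.4 to 98.5). Windows reached only in the tagged lists also held it: 118 of 145 for myc_FLAG (81.4%) and 314 of 491 for edit_myc_FLAG (64%), each counted where neither endog_myc nor rabbit IgG had a region.

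Within the windows before gene starts, the E-box CACGTG was about as common under these regions as in all windows. Sequence of the regions outside such windows was not read. It was in 22 of the 309 windows outside rabbit IgG (7.12%, 4.75 to 10.5), in 1 of 13 under overlapping regions and in 7.35% of all windows, and in the 3 fold groups in 5.77%, 8.82% and 6.8%. Among windows with 10 or more CG it was in 7.38% against 9.12%. The other motifs are given for the 309 windows against all, then for both limited to 10 or more CG. GGGCGG, bound by SP1-type factors, was in 81.2% against 53.7%, then 81.9% against 74.8%. The variant CACGCG was in 15.9% against 12.1%, then 16.4% against 17.9%, so its direction turned. TATAAA, bound by TBP, also turned, from 4.85% against 9.02% to 5.03% against 3.87%. CTTCCGG, an ETS site, was in 9.39% against 10.6%, then 9.06% against 14.9%, and the CREB site TGACGTCA in 1.94% against 2%, then 2.01% against 2.71%. These 7 motifs were searched on both strands after the regions had been seen, windows of paired genes share bases, and a match is a description of the letters in a window.

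**Figure D5:**
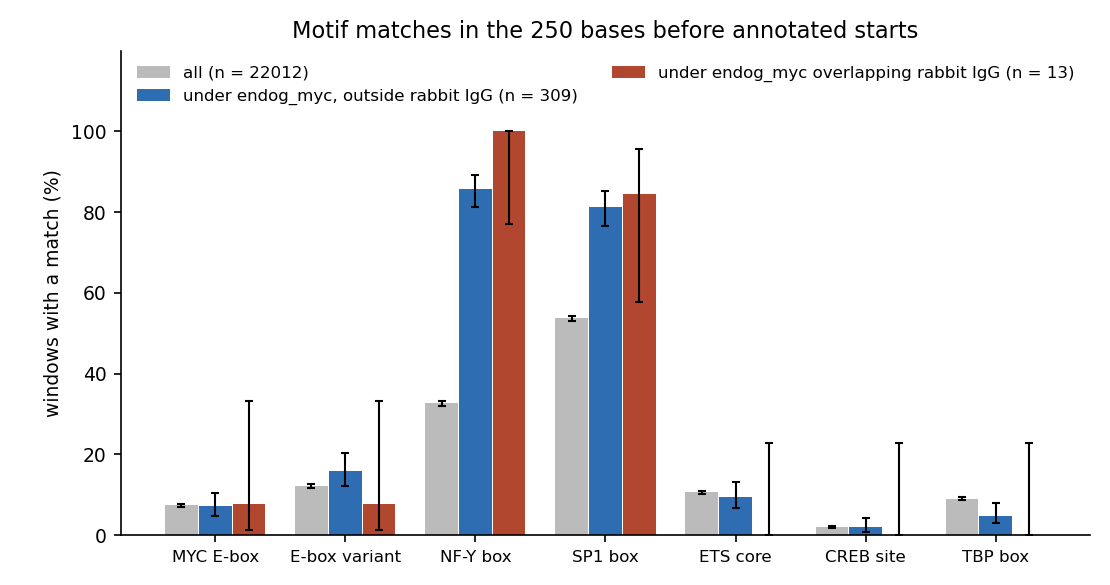
Bars give the percentage of 250-base windows before annotated starts that hold each of the 7 motifs on either strand, for all 22012 windows, the 309 under endog_myc regions outside rabbit IgG and the 13 under endog_myc regions overlapping it; error bars are 95% Wilson intervals. The NF-Y box is in 85.8% of the 309 windows against 32.7% of all, and the MYC E-box in 7.12% against 7.35%.

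Each list of genes by function had at most 4 members with a region in either group. The lists were counted by summit within 1000 bp of an end, beside 1.8% of all protein-coding genes for endog_myc and 0.0851% for rabbit IgG. Of 49 nucleolar and growth genes known as MYC targets, UNG, a uracil DNA glycosylase, was the only member with a region (2.04%). Its fold was 5.67, outside rabbit IgG. The MAX network had 0 of 13, cytosolic ribosomal proteins 0 of 84 and olfactory receptors 0 of 392, which allow shares of up to 23.1%, 3.57% and 0.765%. Among 94 histone genes 4 (4.26%) had a region outside rabbit IgG: H3-3B at 10.2, H2AC25 and H2BC26 sharing a region at 6.68, and H2AZ2 at 6.41. Chaperones had 2 of 21 (9.52%), HSPA1B at 8.40 and TCP1 at 4.61, the latter region being nearer to MRPL18. Of 18 translation factors EIF5A (5.56%) had a region, which overlapped rabbit IgG, and no other listed gene had a rabbit IgG summit.

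Many overlapping regions were gathered in a few gene-free stretches, as were the non-overlapping gene-poor regions. Over all locations, overlapping regions had a median of 6 other endog_myc regions within 100 kb, against 1 for non-overlapping regions. Among gene-poor regions alone the medians were 9 and 8.5, and 6.94% and 13.4% had no neighbour. The longest gene-free stretch of each chromosome, which on most human chromosomes surrounds the centromere, held 95 of 207 overlapping (45.9%, 39.2 to 52.7) and 343 of 936 non-overlapping regions (36.6%, 33.6 to 39.8). Chromosome 1 had 52 overlapping of 279 regions, chromosome 4 had 30 of 81 and chromosome 16 had 21 of 59, while gene-dense chromosome 19 had 5 of 87 and chromosome 14 had 0 of 13. The regions within 100 kb of a gene formed clusters: 19 between chr1:143200210-143267532 nearest LOC101929814, 11 between chr4:49118335-49154973 nearest LOC101927209 and 6 between chr16:46386359-46401586 nearest ANKRD26P1, with median folds of 4.23, 4.63 and 3.18.

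Of the non-overlapping regions, gene-poor ones most often lay within 100 kb of a rabbit IgG region, and gene-end ones least often. Of 336 non-overlapping gene-poor regions, 177 (52.7%) were within 100 kb of a rabbit IgG region, at a median of 92.7 kb. For the 278 gene-end regions 7 (2.52%) were that near, at a median distance of 6862641 bp over the 269 with a rabbit IgG region on their chromosome. Between them were the regions outside genes but within 100 kb of one (40.5%) and those inside genes (16.2%). Within 10 kb of a rabbit IgG region these 2 classes had 24.4% and 9.09%, against 12.2% of gene-poor regions.

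The strongest regions of both groups by fold were mostly gene-poor. The highest overlapping one was chr17:25920056-25920384, with a fold of 37.6 in endog_myc and 22.6 in rabbit IgG. Next came chr13:109424129-109424331 (35.7 and 32.2), chr4:50555886-50556352 (30.9 and 21.8) and chr17:22521209-22521545 beside the mitochondrial gene copy MTCYBP13 (30.8 and 31.5). The other 6 of the 10 highest, on chromosomes 3, 6, 10, 17 and 21, had folds of 23.2 to 27.6, and the one at chr3:93470362-93470799 had the highest −log10 q of all, 1306. Mouse IgG had a region at 8 of these 10. Of the 10 highest non-overlapping regions, 8 were gene-poor, led by chr17:25383652-25383927 at 29.5 and chr17:25569143-25569382 at 26.1. Mouse IgG had a region at 4 of the 10, the first 2 among them with folds of 15.4 and 11.9. The exceptions in location were chr5:178585545-178585741 inside the collagen gene COL23A1, at 22.2, and chr17:82586235-82586536 inside FOXK2, a forkhead factor, at 16.2. Both had regions in the 2 FLAG lists (21.7 and 20.6 at COL23A1, 12.9 and 18.1 at FOXK2, myc_FLAG first) and none in mouse IgG.

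Named gene families within 10 kb of the regions were chosen after their values were seen and are described without a test. Nuclear copies of mitochondrial genes lay beside 7 of 207 overlapping (3.38%) and 3 of 936 non-overlapping regions (0.321%). Of these, 4 overlapping regions stood within chr1:629308-634394, with endog_myc folds of 4.65, 4.44, 3.62 and 6.39 and rabbit IgG folds of 4.53, 4.997, 4.03 and 6.38. The copy MTRNR2L8 on chromosome 11 had 17.3 in endog_myc and 16.1 in rabbit IgG. The DUX4 family, the homeobox gene DUX4 and its related copies including pseudogenes, had 6 and 4 regions (2.9% and 0.427%). DUX4 itself was at 11.7 in endog_myc and 12.4 in rabbit IgG. The immunoglobulin kappa locus had 7 and 2 (3.38% and 0.214%). Ribosomal RNA genes or their pseudogenes lay beside 3 of 207 overlapping (1.45%, 0.494 to 4.17) and 18 of 936 non-overlapping regions (1.92%, 1.22 to 3.02), shares whose intervals overlap. Among the non-overlapping ones were 7 along the RNA5S cluster with folds of 2.49 to 3.26. The overlapping region chr4:190021704-190022760 was counted in both this family and the DUX4 family. Genes for transfer RNA, small nuclear RNA and small nucleolar RNA lay within 10 kb of 0 of the 207 overlapping regions each, and of 1, 1 and 9 of the 936 others (0.107%, 0.107% and 0.962%), too few to tell the groups apart.

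The overlapping regions nearly all recurred in each FLAG list, whereas fewer, though still most, recurred in the mouse IgG list. They recurred in edit_myc_FLAG in 200 of 207 (96.6%) against 484 of 936 (51.7%), a difference of 44.9 points (40.2 to 48.6, Fisher's exact adjusted p = 5.53e-41, adjusted over 3 lists). In myc_FLAG it was 204 of 207 (98.6%) against 447 of 936 (47.8%), 50.8 points (46.6 to 54.1, Fisher's exact adjusted p = 3.44e-52). Mouse IgG, from an antibody of another species, held 137 of 207 (66.2%) against 63 of 936 (6.73%), 59.5 points (52.5 to 65.7, Fisher's exact adjusted p = 1.19e-73). Both FLAG lists held 198 of the 207, and neither held 1 of the 207 and 328 of the 936. Strength moved with these differences: with a −log10 q of at least 5 in both lists they were 30.1 points for edit_myc_FLAG and 32 for myc_FLAG, and among the 500 regions of highest fold 32.2 and 35.8. For mouse IgG they were 65.5 and 59 points, and all 6 passed Fisher's exact test after adjustment.

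Gene-end regions were the exception to the mouse IgG recurrence. No gene-end region of either group overlapped mouse IgG, 0 of 9 and 0 of 278 (upper Wilson limits 29.9% and 1.36%), and neither did any of the 13 rabbit IgG gene-end regions. Of the 278, 174 (62.6%) recurred in edit_myc_FLAG and 127 (45.7%) in myc_FLAG. Gene-poor non-overlapping regions recurred in mouse IgG in 34 of 336 (10.1%), and overlapping ones in 52 of 72 (72.2%).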

How the data were processed

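CUT&RUN was run on 11 HEK293T libraries, and 5 lists of regions were deposited, those of the 3-library groups as 1 merged list each. The submitters' processing notes name Bowtie2 2.4.5, SAMtools 1.15, MACS3 3.0.0b1, HOMER 4.10 and hg38; their roles, options, the peak caller's control and the way libraries were merged are not stated in the labels or headers. Each deposited region carries the authors' fold (a ratio over background at the summit) and its −log10 q, also the authors' value, and values of different lists were set side by side without a test. Overlap meant 1 bp or more on chromosomes 1 to 22 and X. A summit was placed at a gene end, inside a gene, within 100 kb of a gene or farther away with RefSeq gene spans (GRCh38.p14). Shares of regions were compared with two-sided Fisher's exact tests in SciPy 1.17.1 (pandas 2.3.3, Python 3.11.15), adjusted by Benjamini-Hochberg within the 4 locations and the 3 other lists, and given Wilson intervals. Regions are no biological replicates, and medians were not tested. Many regions lie in clusters, while the tests and intervals count each region as independent. The overlap and location functions were tested on simulated regions. Genes were named by rule: all protein-coding genes with a rabbit IgG summit within 1000 bp of an end, the 12 of highest fold at non-overlapping gene-end regions, the 10 regions of highest fold in each group, and each rabbit IgG region without an endog_myc one. The members and the 7 gene lists were chosen with earlier results of these data known. The families, the motifs and the inside-gene regions of high fold were chosen after values were seen. Regions outside chromosomes 1 to 22 and X were left out of the comparisons.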

Additional observations from a re-analysis of the deposited data

Results flagged for a closer look

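A signal appeared in regions that the comparisons do not use. Outside chromosomes 1 to 22 and X, on unplaced contigs and the remaining chromosomes, endog_myc had 216 regions. Rabbit IgG overlapped 78 of them (36.1%, 95% Wilson interval 30 to 42.7), so 138 endog_myc regions stood where rabbit IgG had none. In the other direction 80 of 81 rabbit IgG regions there recurred in endog_myc (98.8%, 93.3 to 99.8).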

How the results depend on the processing

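Across 100 recalculations under 15 settings, 86 were counted as unchanged and 14 were not. Unchanged meant the same direction and side of the threshold, or a value within the interval of the main result. The count of genes at rabbit IgG regions had no interval or test and was judged by its ratio to the main count. The sign turned only for 2 differences that passed the test in neither setting: gene-poor (-1.11 points) became 6.71 with all chromosomes and contigs, 4.67 with the IgG lists pooled and 2.74 among the 500 regions of highest fold, and inside-gene (3.35) became -0.0461 with all chromosomes and contigs. The gene-end difference stayed past the threshold under all 11 alternatives run for it. With a −log10 q of at least 5 in both lists, 100% of rabbit IgG regions recurred, the inside-gene difference passed the test at 7.04 points, the median −log10 q difference was 65.3 instead of 44 and the genes at rabbit IgG regions fell to 0. Fewer regions enter that setting (745 and 155). With that threshold on endog_myc alone, CCAAT was in 93% of windows. The inside-gene difference was 9.89 points among the 500 regions of highest fold. With the rabbit and mouse IgG lists pooled, 23.6% of endog_myc regions overlapped and the median −log10 q difference was 26.2. With all chromosomes and contigs 21% overlapped; contigs carry no gene annotation here and counted as gene-poor. Joining rows within 1000 bp gave a median width difference of 420 bp instead of 301. Asking for the endog_myc summit inside a rabbit IgG region, chosen after seeing the data as were the CCAAT settings, gave 16.4%. The cause of these shifts was not tested otherwise. No paired analysis was possible because each group is 1 merged list, and for the same reason no replicate could be left out. Without read depth, weak regions missing from the single rabbit IgG library cannot be called absent from it.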
